A study of Mus musculus with 7 samples.

Results

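The matrix metalloproteinases (MMP), their tissue inhibitors (TIMP), the secreted ADAMTS proteases and the ADAMTS-like proteins were measured as mRNA in fibrotic mouse lung with and without repetitive hyperbaric oxygen (HBO). The members were all protein-coding genes with a symbol of the form Mmp, Timp1 to Timp4, Adamts or Adamtsl followed by a number in GENCODE vM21, a rule that uses names only. There were 50 members among 55401 genes, with 22 MMP, 4 TIMP, 19 ADAMTS and 5 ADAMTSL genes. Of these, 43 had enough reads to be tested.

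All mice were male C57BL/6 animals of 6 to 8 weeks and 20 to 25 g given bleomycin, an antitumour drug whose damage to lung epithelium is followed by fibrosis. From day 7 the BLM+HBO group (3 mice) breathed oxygen in a pressure chamber at 2.5 ATA for 90 min daily over 14 days, and the BLM group (4 mice) did not. The sample records place BLM mice in the chamber without pressurized oxygen, whereas the study's methods call them untreated, and which applied is not settled. Right lung lobes were collected on day 21 and sequenced as whole tissue with 1 library per mouse, so every value below is a level in the mixture of lung cells. The series holds no lung without bleomycin, so the comparison is of BLM+HBO with BLM only.

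MMPs are zinc proteases that cut collagen, elastin and other matrix proteins, and they are made as inactive precursors. TIMPs are small secreted proteins that bind the active site of MMPs and block it. ADAMTS proteases carry thrombospondin repeats and cut proteoglycans, the ends of procollagen and other matrix proteins, whereas ADAMTS-like proteins lack the protease domain and sit in the microfibrils of the matrix. In fibrotic lung, fibroblasts, macrophages and injured epithelium make these proteins while matrix is laid down and remodelled.

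The libraries held between 18157161 and 26365969 counts, of which the 50 members took 0.412% to 0.472% in the BLM mice and 0.286%, 0.462% and 0.352% in BLM+HBO mice 1, 2 and 3. Over all genes the library of BLM+HBO 2 lay closer to the BLM libraries than to its own group. Its chi-square per gene was between 13 and 34.3 against BLM mice, and 64.3 and 57.5 against BLM+HBO 1 and 3. Its label was kept as given, since no gene measured here marks the treatment and the label could not be checked. Results that rest on this mouse are therefore also given without it. The summed level of 7 heart muscle genes was 54.5 to 151 CPM (counts per 1000000 counts of a library, normalized by TMM) in BLM. It was 582, 468 and 141 CPM in BLM+HBO mice 1 to 3. In this sum BLM+HBO 2 lay near BLM+HBO 1 and above every BLM mouse, and BLM+HBO 3 lay in the BLM range. Of the 7 genes, only Actc1, Mb and Ttn were above every BLM mouse in all BLM+HBO mice. The labels name no batch.

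Across the members the levels were more often lower than higher in BLM+HBO. The mean was lower for 32 of the 43 tested members (74.4%, against 48.8% of all 17465 genes tested). The median log2 fold change, BLM+HBO over BLM, was -0.30 over the members and 0.0071 over all genes tested. With the thresholds of the study, an unadjusted P below 0.05 and a fold change above 1.5 in edgeR, 7 members were lower, namely Timp1, Mmp14, Mmp10, Adamts4, Adamts12, Adamts7 and Adamts2. These were 16.3% of the tested members, against 2.89% of all genes. Mmp15 alone was higher, which made 2.33% of the members against 3.4% of all genes. At an unadjusted P below 0.05 without a fold limit there were 9 members (20.9%, against 10.7% of all genes), the ninth being Timp2. None of the 43 passed a Benjamini-Hochberg adjusted P of 0.05 over all genes in edgeR, DESeq2 or limma, so each difference below holds only at the unadjusted level. Of all 17465 genes none passed it in edgeR or limma, and 128 did in DESeq2.

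The counts depended on single mice. Without BLM+HBO 2, 13 members were lower and 2 higher at the unadjusted thresholds (5.41% and 5.29% of all genes). In that edgeR fit Timp1 and Mmp14 passed the adjusted P of 0.05, as did 267 of all 17879 genes tested in it. Without BLM+HBO 3, Adamts2 alone was lower (2.07% of all genes). Without BLM 1, Adamts12, Adamts4 and Mmp14 were lower (1.76% of all genes).

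The plot of single mice shows that the spread within BLM+HBO was wide for most of these genes. Every BLM+HBO mouse lay below every BLM mouse for 4 members, Adamts4, Mmp14, Adamts2 and Mmp10, which is 9.3% of the members against 4.72% of all genes. No member had all BLM+HBO mice above all BLM mice, a pattern seen in 4.05% of all genes. BLM+HBO 1 lay below the BLM range for 22 of the 43 members (51.2%, against 25.7% of all genes) and BLM+HBO 3 for 19 (44.2%, against 24.8%). BLM+HBO 2 lay below it for 10 (23.3%, against 15.7%) and within it for 28.

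**Figure D1:**
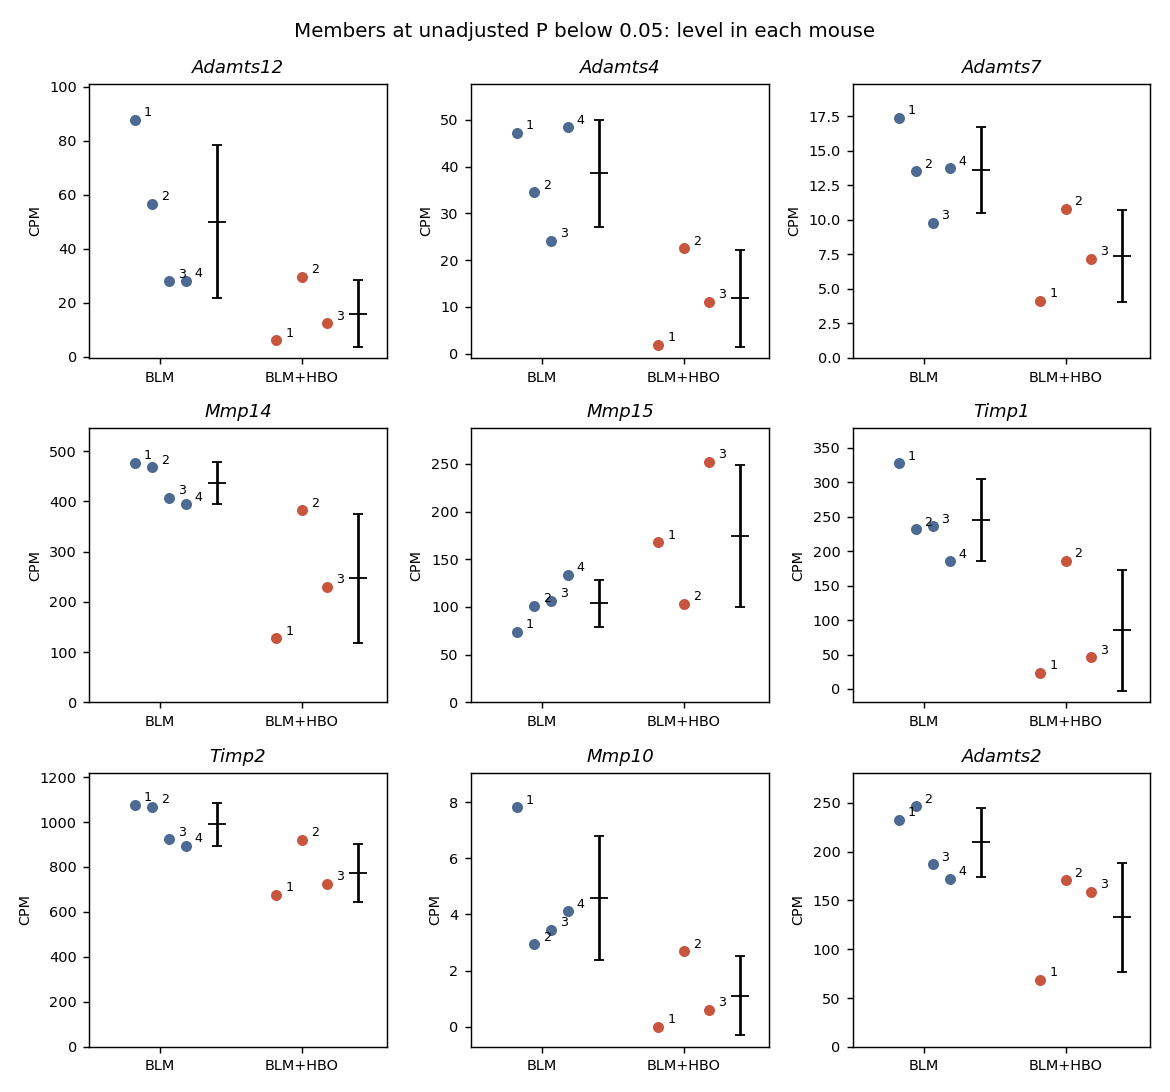
Level in CPM of the 9 members with an unadjusted P below 0.05, by group, with 1 point per mouse marked by its replicate number and the group mean ± SD as a bar. BLM+HBO mice 1 and 3 are the lowest mice in 8 panels and the highest in the Mmp15 panel, whereas BLM+HBO 2 sits near the lowest BLM mice in those 8.

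Among the inhibitors Timp1 had the largest fold difference. Timp1 (ENSMUSG00000001131.11, chrX:20870166-20874735, GRCm38) is an inducible inhibitor of most secreted MMPs. Its level was 328, 232, 236 and 185 CPM in BLM mice 1 to 4, and 23.5, 186 and 45.9 CPM in BLM+HBO mice 1 to 3. BLM+HBO 1 and 3 were far below every BLM mouse, but BLM+HBO 2 was level with the lowest BLM mouse, so the groups overlapped. The log2 fold change was -1.53 (SE 0.58, edgeR unadjusted P = 0.0263, adjusted P = 0.438). Without BLM+HBO 2 it was -2.82 (adjusted P = 0.0151), and without BLM+HBO 3 it was -1.22 and no longer passed (unadjusted P = 0.0911). Nor did it pass without BLM 1 (-1.36, unadjusted P = 0.0589).

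Timp2, which inhibits MMPs and also helps Mmp14 to activate pro-Mmp2 at the cell surface, passed the P limit but not the fold limit. Its levels were 1078, 1069, 922 and 894 CPM in BLM mice and 676, 920.0 and 724 CPM in BLM+HBO mice, where BLM+HBO 2 lay inside the BLM range. On the log2 scale the difference was -0.36 (SE 0.15, edgeR unadjusted P = 0.0399, adjusted P = 0.455). In edgeR the unadjusted P missed the limit with a mouse left out in 4 of 7 cases, at 0.129 and 0.121 with BLM+HBO 1 or BLM+HBO 3 dropped and 0.0879 and 0.0955 with BLM 1 or BLM 2 dropped, and it was 0.0548 with the replicate number as a block. Timp3, a matrix-bound inhibitor that also blocks ADAMTS proteases, was at 669.6, 578, 371 and 508 CPM in BLM and 310.0, 490.3 and 415 CPM in BLM+HBO, and its log2 fold change of -0.39 (SE 0.22) missed the threshold (unadjusted P = 0.102, adjusted P = 0.546 in edgeR). Timp4 was the scarcest inhibitor, at 4.63, 4.34, 4.61 and 3.90 CPM in BLM mice against 3.46, 3.92 and 2.66 CPM in BLM+HBO mice. It differed by -0.39 on the log2 scale (SE 0.24, edgeR unadjusted P = 0.137, adjusted P = 0.588), with BLM+HBO 2 at the lower end of the BLM range. All 4 inhibitors therefore had a lower mean (48.8% of all genes), and 1 of 4 passed both unadjusted thresholds (2.89% of all genes were lower at them). Each of Timp1, Timp3 and Timp4 lies inside a synapsin gene (Syn1, Syn3 and Syn2). The exons of Timp3 share 21.3% of their bases with Syn3, those of Timp4 share 1.53% with Syn2, and those of Timp1 share none with another gene.

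Per length of transcript, which allows genes to be compared, Timp1 and Timp2 were the main inhibitors in BLM lung. This level is the count per kilobase divided by the same sum over all genes of a mouse and given in parts per 1000000. It was 841 ± 225 (SD, 4 mice) for Timp1, 773 ± 85.3 for Timp2, 199 ± 52.6 for Timp3 and 2.25 ± 0.175 for Timp4 in BLM. Timp1 made up 41.6% to 50.7% of the summed TIMP level in BLM mice, and 11.1%, 41.3% and 17.9% in BLM+HBO mice 1, 2 and 3. In BLM+HBO 1 and 3 the inhibitor pool was thus mostly Timp2 while BLM+HBO 2 was close to the lowest BLM mouse.

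**Figure D2:**
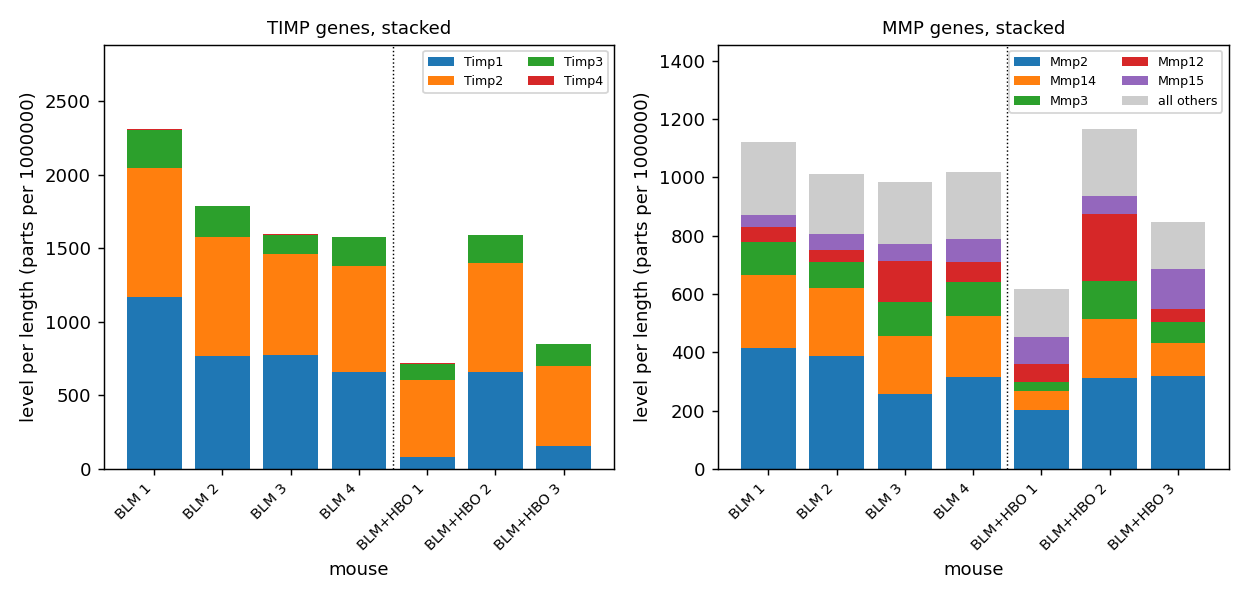
Level per length (parts per 1000000, stacked bars) of the TIMP genes and of the MMP genes in each mouse. The Timp1 share is 41.6% to 50.7% in the BLM mice and 11.1%, 41.3% and 17.9% in BLM+HBO mice 1 to 3, and Mmp2 is the most abundant MMP in every mouse.

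Among the membrane-type MMPs, which act at the cell surface, Mmp14 was lower and Mmp15 higher. Mmp14 (ENSMUSG00000000957.11, chr14:54431612-54445364) cuts fibrillar collagen around the cell and activates pro-Mmp2. It was at 477, 468, 407 and 394 CPM in BLM mice and at 127, 382 and 231 CPM in BLM+HBO mice. All BLM+HBO mice were below all BLM mice, but the gap between BLM+HBO 2 and BLM 4 was small beside the differences among BLM+HBO mice. In the fit, Mmp14 had a log2 fold change of -0.82 (SE 0.30, edgeR unadjusted P = 0.0215, adjusted P = 0.429). It was -1.29 without BLM+HBO 2 (adjusted P = 0.0381), -0.51 without BLM+HBO 1, which is under the fold limit, and -0.78 without BLM+HBO 3 (unadjusted P = 0.0639).

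Mmp15 (ENSMUSG00000031790.8, chr8:95352268-95375080), a related transmembrane protease, was the sole member higher at the unadjusted thresholds. Its levels were 73.8, 102, 106 and 134 CPM in BLM mice and 168, 103 and 252 CPM in BLM+HBO mice. BLM+HBO 1 and 3 exceeded every BLM mouse, while BLM+HBO 2 lay between BLM 2 and BLM 3. For Mmp15 the log2 fold change was 0.75 (SE 0.28, edgeR unadjusted P = 0.024, adjusted P = 0.436). Leaving out BLM+HBO 3 gave 0.38 (unadjusted P = 0.165), leaving out BLM 1 gave 0.62 (unadjusted P = 0.0598), and leaving out BLM+HBO 2 gave 1.02. The summed level of alveolar type 2 (AT2) cell markers was also highest in BLM+HBO 1 and 3. It was 23806, 11109 and 27488 CPM in BLM+HBO mice 1 to 3 against 8745 to 16004 CPM in BLM. Sftpc was the largest part of this sum, at 14821, 6535 and 16262 CPM in BLM+HBO mice. By gene, Sftpc, Lamp3, Sftpa1 and Slc34a2 were highest in BLM+HBO 1 and 3. Sftpb and Abca3 were at 3478 and 288 CPM in BLM+HBO 1, below BLM 2 at 3801 and 356 CPM. The part of AT2 cells in the Mmp15 result was not tested. The other tested members of the class, Mmp16, Mmp17 and Mmp25, had group means between 1.08 and 5.25 CPM and did not pass, with log2 fold changes of 0.33, -0.52 and 0.18.

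The gelatinases cut denatured and basement membrane collagen. Mmp2, the MMP with the highest level per length in every mouse, was at 439.7, 444, 299 and 339 CPM in BLM and 228, 333 and 364 CPM in BLM+HBO. Only BLM+HBO 1 lay below the BLM range, and the log2 fold change of -0.30 (SE 0.20) did not pass (edgeR unadjusted P = 0.159, adjusted P = 0.608). Mmp9, the gelatinase that neutrophils store in granules, was at 16.5, 18.5, 13.9 and 12.6 CPM in BLM mice and at 31.1, 8.85 and 9.49 CPM in BLM+HBO mice. BLM+HBO 1 was above every BLM mouse and the other BLM+HBO mice were below every BLM mouse, so the fitted difference was near 0 (log2 0.09, SE 0.40, edgeR unadjusted P = 0.819, adjusted P = 0.952). Without BLM+HBO 1 it was -0.74 (unadjusted P = 0.00541), so its direction rests on this mouse. The neutrophil marker list had its highest sum in the same mouse, at 616, 187 and 187 CPM in BLM+HBO mice 1 to 3 against 283 to 379 CPM in BLM. S100a9, an abundant neutrophil protein on that list, was at 210.0, 26.4 and 37.8 CPM in BLM+HBO. In BLM it was at 63.1, 44.5, 83.7 and 51.8 CPM. Ltf, also on the list, was at 72.9, 98.7 and 64.5 CPM in BLM+HBO and 108, 141, 152 and 150 CPM in BLM. For Ltf all BLM+HBO mice, BLM+HBO 1 included, were below all BLM mice (log2 -0.81, edgeR unadjusted P = 0.000981). The other markers on the list were highest in BLM+HBO 1. The part of neutrophils in the Mmp9 level was not tested.

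The collagenases and stromelysins open fibrillar collagen and a range of other matrix proteins, and most of them lie side by side on chromosome 9. This cluster held 9 members between positions 7272514 and 7699585, namely Mmp13, Mmp12, Mmp1b, Mmp3, Mmp10, Mmp8, Mmp27, Mmp20 and Mmp7. The 6 tested had a median log2 fold change of -0.51, 5 had a lower mean, and Mmp10 alone passed the unadjusted thresholds. Of all genes 48.8% had a lower mean and 2.89% were lower at those thresholds. Promoters of the cluster are shown because most of its genes share a motif that the choice of members did not use. Promoters were taken from RefSeq (GRCm38.p6), which had an entry for 35 of the 50 members, and 250 bases before each start were searched on both strands. The AP-1 site, which binds Fos and Jun proteins, was searched as TGANTCA, where N is any base. This loose form of the site was found in 6.75% of all 32851 promoters. It was found in 7 of the 38 promoters of members. These belonged to Mmp10, Mmp12, Mmp13, Mmp1b, Mmp20, Mmp3 and Mmp7, all in the chromosome 9 cluster, and not to Mmp8 or Mmp27. The match read TGAATCA in Mmp20 and TGAGTCA or TGACTCA, the usual forms of the site, in the others. Mmp12 and Mmp7 each had a further promoter entry without the site. Mmp8 (log2 -0.52) and Mmp27 (-0.69), without the site, also had lower means. Mmp12, the tested carrier with a higher mean (log2 0.51), is not shown. The bases just before the start are shown for the cluster genes Mmp10, Mmp3 and Mmp13, with the AP-1 match in capitals.
Mmp10, chr9:7502202-7502341, plus strand: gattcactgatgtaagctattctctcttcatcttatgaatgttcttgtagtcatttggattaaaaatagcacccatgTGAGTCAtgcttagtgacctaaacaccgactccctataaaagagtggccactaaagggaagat
Mmp3, chr9:7445682-7445821, plus strand: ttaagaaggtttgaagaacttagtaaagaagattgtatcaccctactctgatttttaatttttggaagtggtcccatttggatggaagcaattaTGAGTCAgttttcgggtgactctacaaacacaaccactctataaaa
Mmp13, chr9:7272374-7272513, plus strand: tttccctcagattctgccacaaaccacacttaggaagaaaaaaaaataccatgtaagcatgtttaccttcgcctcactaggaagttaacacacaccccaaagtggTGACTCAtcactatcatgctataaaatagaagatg
The match began 63 bases before the start in Mmp10, 46 in Mmp3 and 35 in Mmp13, with the start taken from the promoter entry. The letters TATAAA of the TATA box, found in 12.4% of all promoters, stood between it and the start in all of them. TATAAA began 29 bases before the start in Mmp10, but only 7 in Mmp3 and 16 in Mmp13. The AP-1 and TATAAA matches did not overlap. A match is a description of the letters only, since binding was not measured.

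Mmp10 (ENSMUSG00000047562.3, chr9:7502352-7510240), a stromelysin made by injured epithelium and macrophages, was scarce, with 142, 52, 63 and 78 reads in BLM mice and 0, 56 and 16 reads in BLM+HBO mice. These were 7.82, 2.93, 3.46 and 4.11 CPM and 0, 2.68 and 0.6 CPM, so all BLM+HBO mice were lower, BLM+HBO 2 by little. The log2 fold change was -2.06 (SE 0.87, edgeR unadjusted P = 0.0406, adjusted P = 0.457). It did not pass without BLM 1 (-1.67, unadjusted P = 0.104), BLM 3, BLM 4 or BLM+HBO 3 (-1.75, unadjusted P = 0.118) in edgeR, nor with all mice in DESeq2 (unadjusted P = 0.105). Mmp3, the other stromelysin of the cluster, was at 64.2, 54.8, 71.4 and 67.3 CPM in BLM and 19.2, 75.0 and 43.3 CPM in BLM+HBO. BLM+HBO 2 was the highest of the 7 mice and BLM+HBO 1 the lowest. Its log2 fold change of -0.49 (SE 0.35, edgeR unadjusted P = 0.194, adjusted P = 0.637) became -1.04 (unadjusted P = 0.00435) without BLM+HBO 2. Mmp11, a stromelysin by name that lies on chromosome 10, had a log2 fold change of -0.09 and did not pass.

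Mmp8, the neutrophil collagenase, was at 30.3, 21.9, 15.6 and 14.0 CPM in BLM mice against 20.4, 13.9 and 8.59 CPM in BLM+HBO mice, a log2 fold change of -0.52 (SE 0.33) that did not pass (edgeR unadjusted P = 0.147, adjusted P = 0.601). Without BLM+HBO 1, the mouse with the most neutrophil marker RNA, it was -0.87 (unadjusted P = 0.0312). Mmp13, collagenase-3, varied more within each group, at 13.4, 8.96, 18.1 and 7.37 CPM in BLM and 3.99, 18.4 and 4.01 CPM in BLM+HBO. BLM+HBO 2 was just above the highest BLM mouse, while the others were below all BLM mice (log2 -0.44, edgeR unadjusted P = 0.437).

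Mmp12, the macrophage elastase, did not follow the direction of its neighbours. Its levels were 112, 105, 356 and 160.1 CPM in BLM and 142, 533 and 109.9 CPM in BLM+HBO, so BLM 3 and BLM+HBO 2 stood above the other mice. The log2 fold change was 0.51 (SE 0.58, edgeR unadjusted P = 0.394, adjusted P = 0.778) and turned to -0.54 without BLM+HBO 2.

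Of the remaining MMPs, Mmp19, an MMP of fibroblasts and macrophages, was at 78.9, 50.7, 64.7 and 83.1 CPM in BLM and 27.2, 71.6 and 39.2 CPM in BLM+HBO. For Mmp19 the log2 fold change was -0.59 (SE 0.30, edgeR unadjusted P = 0.0769, adjusted P = 0.51), and it was -1.06 without BLM+HBO 2 (unadjusted P = 0.00107). Its exons share 28.3% of their bases with Tmem198b and Gm47093, and reads that overlap several genes were dropped in the authors' counting. Mmp28, an epithelial MMP, had a mean of 13.4 ± 4.13 CPM (SD, 4 mice) in BLM and 18.3 ± 2.89 CPM (SD, 3 mice) in BLM+HBO, which did not pass (log2 0.45, edgeR unadjusted P = 0.104). Mmp23 and Mmp27 had log2 fold changes of -0.09 and -0.69 and did not pass either.

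**Figure D3:**
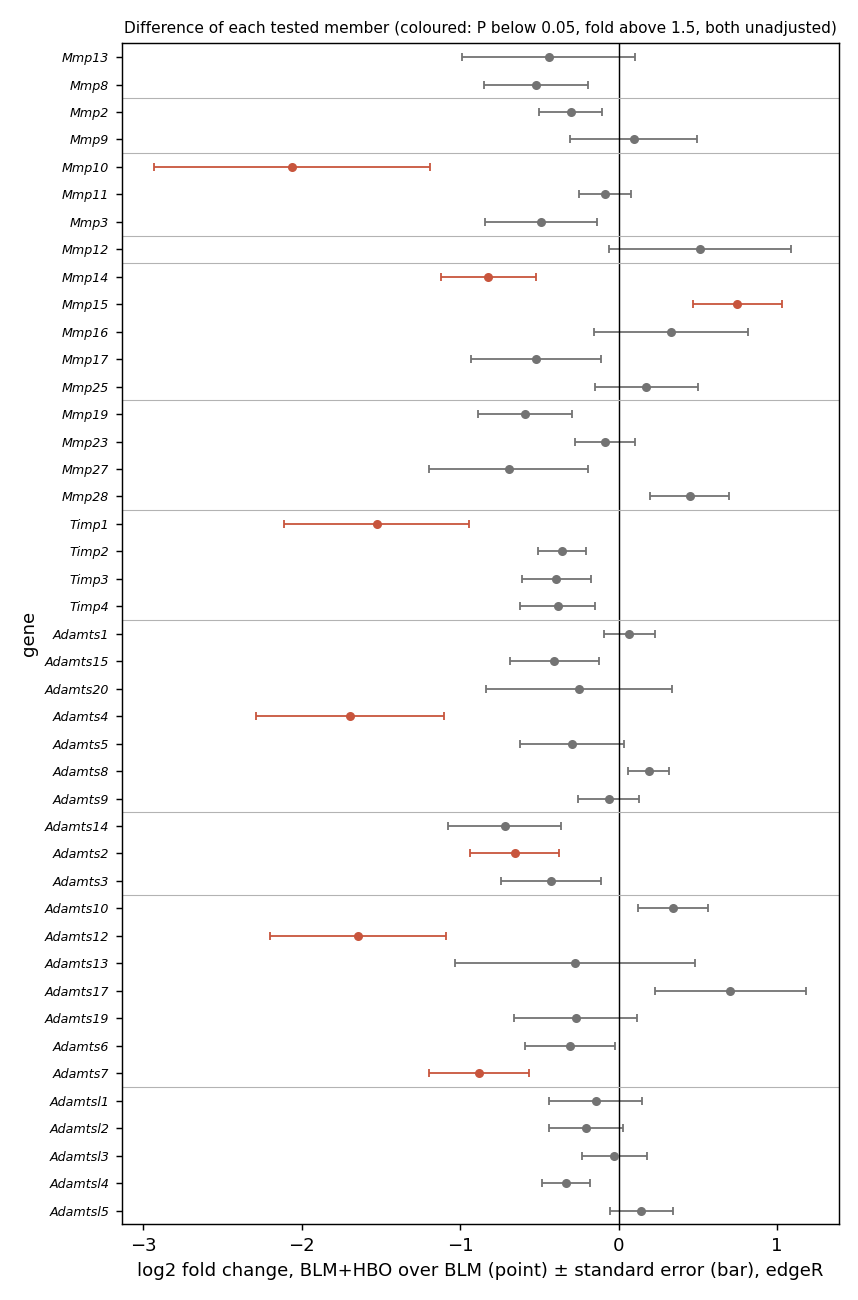
Log2 fold change of BLM+HBO over BLM (points) with its standard error (bars) from edgeR for the 43 tested members, ordered by role. The 8 coloured members passed the unadjusted thresholds, 7 to the left of 0 and Mmp15 to the right, and the grey points lie between -0.72 and 0.70.

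The ADAMTS proteases that cut aggrecan and versican included Adamts4 (ENSMUSG00000006403.13, chr1:171250421-171260637), an inducible aggrecanase. Its levels were 47.2, 34.5, 24.2 and 48.4 CPM in BLM mice and 1.92, 22.5 and 11.1 CPM in BLM+HBO mice. All BLM+HBO mice lay below all BLM mice, and BLM+HBO 2 was just under BLM 3. In the fit, Adamts4 had a log2 fold change of -1.70 (SE 0.59, edgeR unadjusted P = 0.0177, adjusted P = 0.423). The value was -2.53 without BLM+HBO 2, and it did not pass without BLM+HBO 3 (-1.65, unadjusted P = 0.0508). Adamts1, the most abundant protease of this class per length (150.0 ± 22.5 in BLM, SD, 4 mice), did not pass. It was at 298, 222, 266 and 259 CPM in BLM and 252, 343 and 225 CPM in BLM+HBO, with a log2 fold change of 0.07 (SE 0.16, edgeR unadjusted P = 0.689, adjusted P = 0.914) whose sign depends on single mice. The other tested members of the class, Adamts5, Adamts8, Adamts9, Adamts15 and Adamts20, had log2 fold changes between -0.41 and 0.19 and did not pass. Versican (Vcan), a substrate of this class, was at 79.7, 36.4, 29.5 and 47.9 CPM in BLM and 24.3, 27.6 and 17.4 CPM in BLM+HBO, which was lower at the unadjusted thresholds (log2 -1.07, edgeR unadjusted P = 0.00793).

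The procollagen N-proteinases remove the amino-terminal propeptide of fibrillar procollagens. Adamts2 (ENSMUSG00000036545.9, chr11:50602084-50807573), the most abundant of them, was at 232, 246, 187 and 172 CPM in BLM and 68.8, 170.5 and 159 CPM in BLM+HBO. BLM+HBO 1 was far below the rest, while BLM+HBO 2 and 3 were a little under BLM 4. The log2 fold change was -0.66 (SE 0.28, edgeR unadjusted P = 0.0419, adjusted P = 0.459), and it was -0.35 without BLM+HBO 1 (unadjusted P = 0.0666), where it did not pass, and -0.88 without BLM+HBO 2. Leaving out BLM 1, BLM 2 or BLM 3 also ended the call. Adamts14 had a mean of 13.1 ± 4.62 CPM (SD, 4 mice) in BLM and 7.97 ± 4.14 CPM (SD, 3 mice) in BLM+HBO (log2 -0.72, edgeR unadjusted P = 0.0737). Adamts3 was near 1 to 2 CPM in all mice (log2 -0.43). Of their procollagen substrates, Col1a1 was at 3133, 2234, 2177 and 1766 CPM in BLM and 318, 1806 and 910.0 CPM in BLM+HBO (log2 -1.20, unadjusted P = 0.03 in edgeR), again lowest in BLM+HBO 1.

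Adamts12 and Adamts7, which are known to cut cartilage oligomeric matrix protein, were both lower. Adamts12 (ENSMUSG00000047497.10, chr15:11064790-11349231) had the smallest P of all members. Its levels were 87.8, 56.6, 28.0 and 28.1 CPM in BLM mice and 6.07, 29.7 and 12.3 CPM in BLM+HBO mice. The BLM mice differed widely among themselves, and BLM+HBO 2 lay just above BLM 3 and 4. On the log2 scale Adamts12 differed by -1.64 (SE 0.55, edgeR unadjusted P = 0.0149, adjusted P = 0.423), -2.43 without BLM+HBO 2 and -1.48 without BLM+HBO 3 (unadjusted P = 0.0533). Adamts7 (ENSMUSG00000032363.15, chr9:90163069-90208071) was at 17.4, 13.5, 9.77 and 13.7 CPM in BLM and 4.15, 10.8 and 7.16 CPM in BLM+HBO, where BLM+HBO 2 overlapped BLM 3. It had a log2 fold change of -0.88 (SE 0.31, edgeR unadjusted P = 0.0192, adjusted P = 0.423), which missed the threshold without BLM 1, BLM+HBO 1 or BLM+HBO 3 and was -1.26 without BLM+HBO 2.

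Adamts10 and Adamts17, which associate with fibrillin microfibrils, had higher means but did not pass. Adamts10 was at 104, 156, 185 and 205 CPM in BLM and 168, 202 and 248 CPM in BLM+HBO, so BLM+HBO 3 alone was above the BLM range (log2 0.34, SE 0.22, edgeR unadjusted P = 0.154, adjusted P = 0.607). Adamts17 had a log2 fold change of 0.70 (edgeR unadjusted P = 0.172) with overlapping groups. Adamts13, the protease of von Willebrand factor, Adamts19 and Adamts6 had log2 fold changes from -0.31 to -0.27 and did not pass.

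No ADAMTS-like gene passed. Adamtsl4, a fibrillin-binding protein and the most abundant of them per length, was at 72.9, 80.5, 92.3 and 90.8 CPM in BLM and 52.1, 71.2 and 77.1 CPM in BLM+HBO (log2 fold change -0.33, SE 0.15, edgeR unadjusted P = 0.0526, adjusted P = 0.471). The other 4 had log2 fold changes between -0.21 and 0.14.

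**Figure D4:**
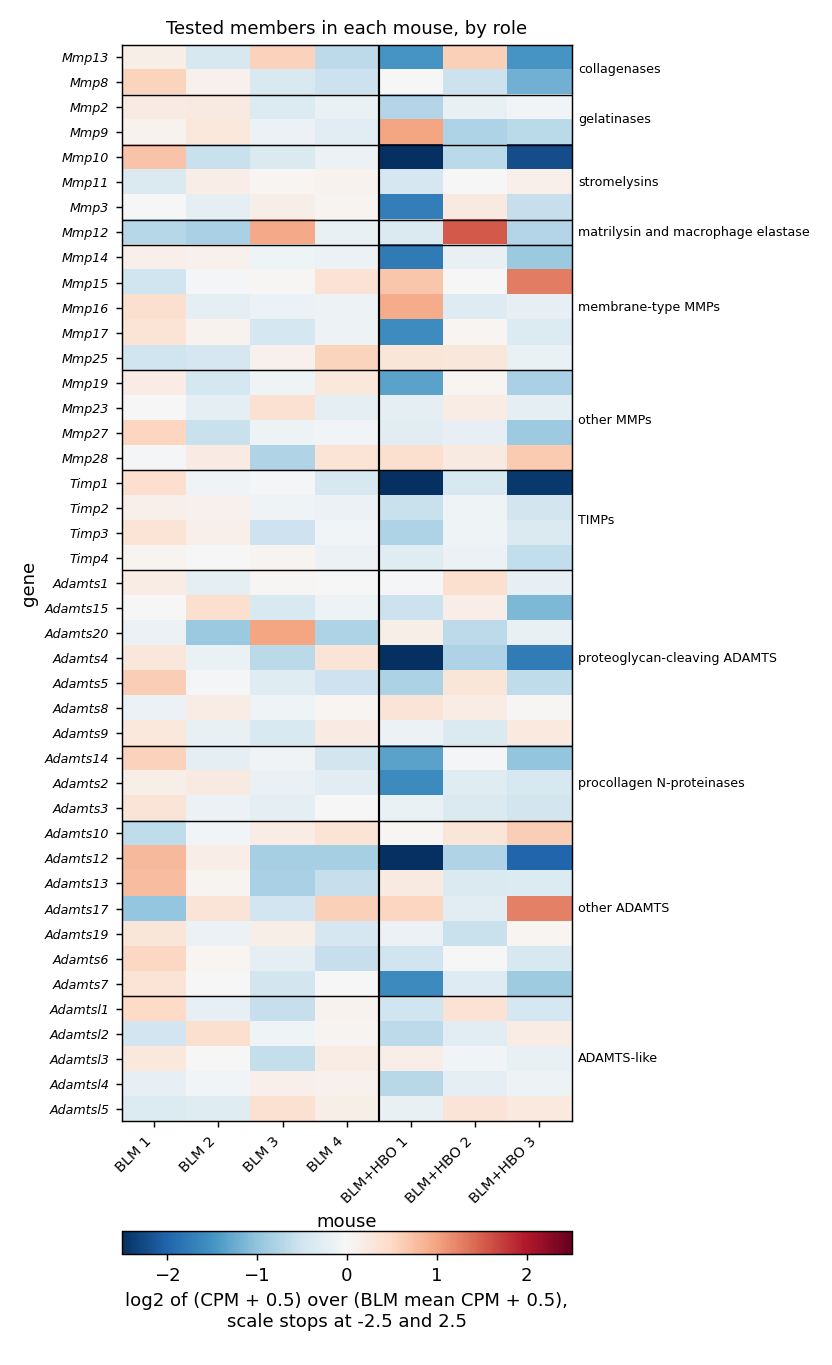
Each tested member (rows, by role) in each mouse (columns) as log2 of CPM + 0.5 over the BLM mean + 0.5, with blue for lower and red for higher and the scale stopped at -2.5 and 2.5. BLM+HBO 1 lies below the BLM range for 22 of the 43 members, BLM+HBO 3 for 19 and BLM+HBO 2 for 10.

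Summed per length, the inhibitors were lower relative to the proteases in the BLM+HBO mice. The summed TIMP level was 2306, 1789, 1593 and 1575 in BLM mice 1 to 4 and 717, 1592 and 850.2 in BLM+HBO mice 1 to 3. The summed MMP level was 1121, 1010, 982 and 1017 in BLM against 616, 1164 and 845 in BLM+HBO. Their ratio was 0.486, 0.564, 0.616 and 0.646 in BLM mice and 0.859, 0.731 and 0.994 in BLM+HBO mice, so the groups did not overlap. Mmp12 took 4.22% to 14.5% of the MMP sum in BLM mice and 19.9% in BLM+HBO 2, and with this gene left out the ratio was 0.465 to 0.601 in BLM and 0.777, 0.585 and 0.941 in BLM+HBO, where BLM+HBO 2 overlapped the BLM mice. These sums are given without a test, and mRNA levels do not measure protease activity.

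The letters ACGTG were searched in the same promoters because the study concerned hypoxia. They are a form of the core of the hypoxia response element that HIF binds, and also part of the E-box CACGTG. Other forms of the core were not searched, so a promoter without a match may hold one. The letters ACGTG were found in 16.6% of all promoters and in 7 of the 38 promoters of members. These were the promoters of Adamts17, Adamts18, Adamts20, Adamts3, Mmp14, Mmp7 and Timp1. Of the other members lower in BLM+HBO, Mmp10, Adamts12 and Adamts2 had no match, and Adamts4 and Adamts7 had no promoter entry. The promoters of Timp1 and Mmp14 are shown as those with a match among the lower members, and that of Mmp15, in which none of the searched motifs was found, as that of the member that was higher, with the match in capitals.
Timp1, chrX:20870026-20870165, plus strand: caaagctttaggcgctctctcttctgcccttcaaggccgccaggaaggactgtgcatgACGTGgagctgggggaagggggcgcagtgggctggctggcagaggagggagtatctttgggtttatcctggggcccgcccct
Mmp14, chr14:54431458-54431597, plus strand: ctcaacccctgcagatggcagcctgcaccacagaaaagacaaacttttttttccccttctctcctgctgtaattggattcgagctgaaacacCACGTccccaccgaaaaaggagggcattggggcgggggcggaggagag
Mmp15, chr8:95352156-95352295, plus strand: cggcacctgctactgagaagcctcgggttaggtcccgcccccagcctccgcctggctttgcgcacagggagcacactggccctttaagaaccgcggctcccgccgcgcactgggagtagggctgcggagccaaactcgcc
The match began 82 bases before the start in Timp1 and 48 in Mmp14, where it lies on the other strand and reads CACGT. Of the tested carriers of these letters, Adamts17 had a higher mean (log2 0.70, edgeR unadjusted P = 0.172). Timp1, Mmp14, Adamts3 (-0.43) and Adamts20 (-0.25) had lower means. HIF binding was not measured, and its part in these results was not tested.

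The 7 members not tested had few reads. Adamts16 had 40, 5, 5 and 5 reads in BLM mice and 0, 5 and 2 in BLM+HBO mice. Mmp24 had at most 8 reads in a mouse, Adamts18 at most 8, Mmp20 at most 3, Mmp1b and Mmp21 at most 2 and Mmp7, matrilysin, at most 1. None of them was tested with the filter on low counts. In a fit without it Adamts16 was lower at the unadjusted thresholds, with most of its reads in 1 mouse.

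Genes that control these proteases, share their work or are related to them were read from lists of fixed membership. Among 17 tested regulators of MMPs, 16 had a lower mean and 6 were lower at the unadjusted thresholds (median log2 fold change -0.56), where 48.8% of all genes had a lower mean and 2.89% were lower. They included the inhibitor A2m (-1.40), the plasminogen activators Plat (-0.67) and Plau (-0.85), their inhibitor Serpine2 (-0.87), and Thbs2 (-1.47), which clears Mmp2 from the matrix. Furin, which removes the prodomain of Mmp14 and many ADAMTS proteases, was at 294, 273, 248 and 259 CPM in BLM and 126, 224 and 190.3 CPM in BLM+HBO, with all BLM+HBO mice lower (log2 -0.58, edgeR unadjusted P = 0.00989), but stayed within the fold limit. Reck, a membrane-bound MMP inhibitor, was at 33.3, 35.3, 35.6 and 36.8 CPM in BLM and 46.5, 37.9 and 37.8 CPM in BLM+HBO, so all BLM+HBO mice were higher, but it did not pass (log2 0.21, edgeR unadjusted P = 0.0973). The next lists read against 2.89% lower and 3.4% higher among all genes. Of 12 genes of the ADAM family, which is related to ADAMTS, Adam12 was lower (-1.45) and Adam22 (0.70) and Adam28 (0.63) were higher. Of 4 tested genes of procollagen C-terminal processing, Pcolce2 was higher (0.86), whereas Bmp1 (-0.29) did not pass. Of 9 tested cysteine and serine proteases of the matrix, the collagen-cutting Ctsk (-0.75), Ctsl (-0.68) and Htra3 (-0.69) were lower and Dpp4 was higher (0.68).

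Many of the substrates were also lower. Of 10 collagen genes 7 were lower at the unadjusted thresholds (median log2 fold change -0.75, against 2.89% of all genes lower and a median of 0.0071), of 7 tested proteoglycans Vcan, Dcn and Lum were lower, and of 11 other substrates Fbn1, Ltbp1, Tnc and Spp1 were lower. Summed collagen levels were 12007 to 17893 CPM in BLM and 4088, 12631 and 8185 CPM in BLM+HBO mice 1 to 3, so BLM+HBO 2 again lay in the BLM range. No list gene passed after adjustment in edgeR.

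Markers of some cell types also differed, and fewer cells of a type cannot be told apart from less RNA per cell in whole tissue. The counts below, at the unadjusted thresholds, read against 2.89% lower and 3.4% higher among all genes. Of the 7 markers of activated fibroblasts 4 were lower and their summed level was 4627 to 7354 CPM in BLM and 1456, 4555 and 2595 CPM in BLM+HBO mice 1 to 3. Of the 7 markers of macrophages of injured lung 3 were lower, with 6054 to 7232 CPM in BLM and 2014, 5160.4 and 2527 CPM in BLM+HBO. Of 4 mesothelial markers 2 were lower, with 366 to 653 CPM and 213, 432 and 96.9 CPM. In the sums of these 3 lists BLM+HBO 1 and 3 were below every BLM mouse, as they were for Timp1, Mmp14 and Adamts12. In the BLM mice Spp1 was the largest part of the macrophage sum and Msln of the mesothelial sum. Most single markers were also below every BLM mouse in BLM+HBO 1 and 3. The exceptions, in the BLM range, were Fabp5 in both mice, Upk3b in BLM+HBO 1 and Fap in BLM+HBO 3. BLM+HBO 2 was also below every BLM mouse in the fibroblast and macrophage sums, by less, and lay in the BLM range for mesothelium. By gene, Postn was the only fibroblast marker below every BLM mouse in BLM+HBO 2 (368 CPM, against 382 CPM in BLM 3). The other fibroblast markers lay in the BLM range in this mouse. Of the macrophage markers, Spp1, Ctsd and Arg1 were below every BLM mouse in BLM+HBO 2, and the others lay in the BLM range. The part of these cells in the results was not tested. The fibroblast list shares Col1a1, Col3a1 and Tnc, and the macrophage list Spp1, with the substrate lists. Among other lists, 2 of 8 resting fibroblast markers, 2 of 4 club cell markers, 1 of 6 AT2 markers and 6 of 7 heart muscle markers were higher, and 1 of 6 smooth muscle markers and 1 of 8 tested neutrophil markers were lower. Of 7 tested alveolar macrophage markers 2 were lower and 1 higher, and none of the endothelial (6), alveolar type 1 (5) or ciliated cell (4) markers passed both thresholds. No listed marker with a row in the table was at 0 in all mice.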

How the data were processed

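RNA from the right lung lobes of 4 BLM and 3 BLM+HBO mice was made into NEBNext Ultra libraries and sequenced as paired ends. Per the study's methods and the labels, the authors used Trim Galore for trimming and HISAT2 2.2.0 for alignment to GRCm38, and deposited raw counts per gene from featureCounts (2.2.0 in the labels, a different release in the methods) at default settings, which use no strand and drop reads that overlap several genes or map to several places. The annotation release is not given in the sources used here. Coordinates of all 50 members equalled GENCODE vM21, which gave a symbol to 55141 of 55401 genes, 54349 by the same identifier version. Mmp1a, a polymorphic pseudogene in vM21, was outside the rule.

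Low counts were removed by filterByExpr (at least 10 reads, 15 in total), and the rest were normalized by TMM (factors 0.964 to 1.036) and tested with edgeR 4.0.16 quasi-likelihood (R 4.3.3) across 17465 genes, with limma 3.58.1 and DESeq2 1.42.0 as alternatives. CPM used TMM library sizes. Levels per length used the deposited gene lengths. The edgeR P values test the difference between the groups against the spread between mice, as moderated over all genes tested. Counting error is small beside that spread except for members with few reads. The members and lists were chosen with earlier results of these data known. Full statistics were given for members at unadjusted P below 0.05, the TIMPs, Mmp2, Mmp9, Mmp12 and Mmp14, and the highest member per length of each role. Replicate numbers were not treated as pairs, since the correlations of same-numbered mice were -0.0080, -0.066 and 0.161. The values of 1 gene of the regulator list are not reported here.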

Additional observations from a re-analysis of the deposited data

How the results depend on the processing

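Of the 8 members past the unadjusted thresholds (7 lower, 1 higher), 4 remained at a fold change above 2 (4 lower, 0 higher) and 0 at an unadjusted P limit of 0.01. Leaving out each mouse in turn gave from 1 to 15 members, with 1 to 13 lower and 0 to 2 higher (1.76% to 5.41% and 1.93% to 5.29% of all genes). The lowest total came without BLM+HBO 3 and the highest without BLM+HBO 2. Members at an adjusted P below 0.05 numbered 0 in edgeR (9 at an unadjusted P below 0.05), 5 without a filter on low counts (Adamts12, Adamts4, Mmp14, Mmp15 and Timp1), and 0 to 2 with a mouse left out. The no-filter fit tested 32896 genes and called 387 of all genes at that limit. The fit without BLM+HBO 2, which gave the 2 members, called 267 of 17879 genes. Members whose groups did not overlap numbered 4 (8.77% of all genes), and 5 to 17 with a mouse left out (11.5% to 25.2% of all genes, the highest of both without BLM+HBO 2). RLE factors and a filter of 1 CPM called 7 lower (2.89% and 2.82% of all genes), robust empirical Bayes 5 (2.65%), DESeq2 8 (3.04%), limma-trend 9 (3.41%) and no filter 10 (2.62%), and Mmp15 was higher in each. The log2 fold change of Mmp9 turned to -0.14 in limma-trend and -0.23 with the replicate block, and ranged from -0.74 to 0.39 with a mouse left out. That of Mmp12 ranged from -0.54 to 1.06 and that of Adamts1 from -0.13 to 0.19, with Adamts1 at -0.0045 without BLM 2. The cause of these changes was not tested. The other 17 genes with full statistics kept their direction under all of these alternatives. The replicate block gave 7 lower members and 1 higher (3.36% and 3.85% of all genes), with Mmp8 in place of Mmp10. The best match among BLM mice was BLM 2, 1 and 3 for BLM+HBO 1, 2 and 3, so the numbers were not taken as pairs. Members with few reads, Mmp10 included, are limited by depth.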
